A study of Homo sapiens with 48 samples.

Results

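The FOS, JUN and EGR immediate early genes described here are 10 genes of the 19775 measured, FOS, FOSB, FOSL1, FOSL2, JUN, JUNB, JUND, ATF3, EGR1 and EGR3. They were chosen by name, as a family, with earlier results of these data known. Every probe set whose only gene symbol in the platform annotation was a member was taken, which gave 24 of 54613 probe sets: 5 for FOSL2, 4 each for JUN and JUND, 3 each for ATF3 and EGR1 and 1 each for the rest. All 24 were tested, since no filter on dim signals was applied. The cells were T47D-YA, a luminal breast cancer line without insulin receptor substrate (IRS) proteins, in sublines selected to carry a human IRS-2 (clones #6 and #1) or IRS-1 (clones #20 and #10), so each subline is 1 clone. After 24 h in serum-free medium (SFM), cells of every clone received IGF-I (insulin-like growth factor I) or stayed without it, in medium with fibronectin according to the methods, and their RNA was read after 24 h or 4 h on HG-U133 Plus 2.0 arrays, which carry short Affymetrix probes grouped into probe sets. The controls without IGF-I are called SFM, as in the labels. That design has 16 groups with 3 arrays apiece, lettered A, B and C, and 48 arrays in all, and nothing in the sources says that they were separate cultures, so p-values measure the spread between arrays, which may be technical. IRS-null cells are outside the arrays analysed here.

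Immediate early genes are switched on by growth factors within minutes through kinases such as ERK, without new protein synthesis, and the transcripts of FOS and EGR1 usually decay again within hours. FOS proteins (FOS, FOSB, FOSL1, FOSL2) bind DNA as dimers, chiefly with JUN proteins (JUN, JUNB, JUND), and these FOS-JUN dimers form the transcription factor AP-1. ATF3 is a related leucine zipper factor that can pair with JUN proteins and is induced by stress and by growth signals, while EGR1 and EGR3 are zinc finger factors. An array taken hours after IGF-I reads what remains, or what came later, and no array earlier than 4 h was analysed here.

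Values are log2 levels of probe sets summarized with GC-RMA, an array normalization that corrects for GC content of probes. Each gene is given by its brightest probe set (by mean over the 48 arrays) unless another is named, and no result rests on a level of one probe set set against another. Array medians lay between 7.39 and 7.51, and arrays of a group correlated at 0.994 to 0.998. As a description of the cells, the 8 luminal markers (KRT8, KRT18, KRT19, CDH1, ESR1, GATA3, FOXA1 and PGR) ranked at the 90.1 to 100 percentile of all probe sets by mean signal. The 7 markers of other cell types ranked at 19.3 to 86.9 (COL1A1 86.9, PECAM1 79.5, VIM 75.9, KRT5 67.3, COL1A2 54.6, PTPRC 27 and KRT14 19.3), so several of them were not dim, and their part in the results was not tested. In these bulk samples, fewer cells with a transcript and less transcript per cell cannot be told apart. The IRS1 probe set 204686_at was 5.36 times as high in clones with the IRS-2 label as in clones with the IRS-1 label, while no other probe set for IRS1 or IRS2 differed by more than 0.41 (log2). The files do not show which of these sequences the introduced genes cover, so these values do not settle whether the labels are right, and the clones are named by label throughout. The 3-prime over 5-prime signal of the ACTB control, a sign of RNA quality, was lower in IGF-I than in SFM arrays in every clone and time (log2 differences of -0.047 to -0.011). Between clones it differed more. In SFM it was 0.12 and 0.15 in IRS-2 #6 and #1 at 4 h, against 0.21 and 0.25 in IRS-1 #20 and #10. At 24 h it was 0.11 and 0.16, against 0.19 and 0.23. Its part in the results, including the differences between clones, was not tested.

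After IGF-I, 5 of the 10 genes changed past the adjusted p in at least 1 clone and time, and these changes were under 1.5-fold with 1 exception. That count pools 8 comparisons, and the share of all genes passing in at least 1 of them was not computed. It can therefore not be set against all genes, and the shares given below are for single comparisons. Only ATF3 in IRS-2 #6 at 4 h passed both thresholds, a Benjamini-Hochberg adjusted p under 0.05 in limma over all probe sets and at least 1.5-fold, which is 0.58 on the log2 scale. It was thus called in 1 of 8 comparisons of IGF-I with SFM. By the adjusted p alone, 19 of the 192 values of the 24 probe sets passed, 14 at 4 h (9 higher and 5 lower after IGF-I) and 5 at 24 h (3 higher and 2 lower), and the genes with such a value were ATF3, JUN, JUNB, JUND and FOSL2. "Rose" and "fell" are used below of values past the adjusted p, and "called" of those past both thresholds. In IRS-2 #6, 1 of 24 probe sets was called at 4 h and 7 passed the adjusted p, beside 0.223% and 2.35% of all probe sets tested. In IRS-2 #1 at 4 h, 0 were called and 3 passed, beside 0.108% and 1.62%. In IRS-1 #20 at 4 h, 0 were called and 2 passed, beside 0.11% and 3.08%, and in IRS-1 #10 these numbers were 0 and 2, beside 0.0623% and 1.81%. At 24 h, none was called in any clone. The probe sets past the adjusted p were then 1 of 24 for IRS-2 #6 (called 0.0787%, adjusted p 3.84% of all), 0 for clone #1 (0.0476%, 3.15%), 4 for IRS-1 #20 (0.251%, 7.2%) and 0 for clone #10 (0.251%, 8.01%). The median log2 change of the 10 genes was 0.14 in IRS-2 #6 and 0.16 in IRS-1 #20 at 4 h and lay between -0.03 and 0.07 in the other 6 comparisons, while the median over all genes lay between -0.01 and 0.01. The plot of responses with intervals shows all 10 genes.

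**Figure D1:**
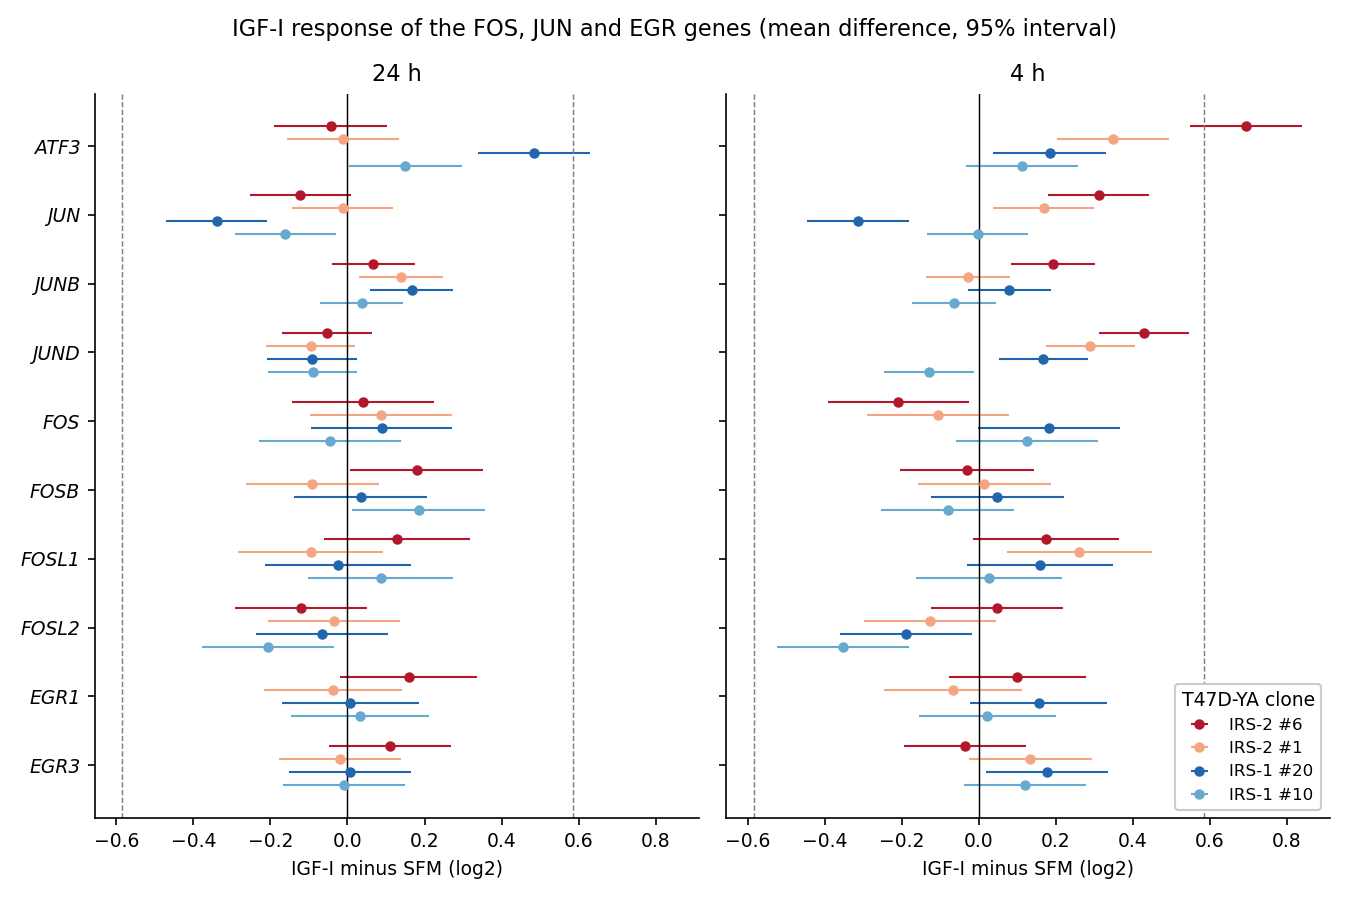
Difference in mean log2 level, IGF-I minus SFM, with its 95% interval from limma (points and lines) for the 10 genes in 4 clones, at 24 h (left) and 4 h (right), each mean over 3 arrays. Dashed lines mark 1.5-fold. ATF3 in IRS-2 #6 at 4 h lies beyond the line at 0.69, and the intervals of every gene but ATF3 stay inside both lines.

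Promoter windows are shown for the 3 genes whose response differed between IRS-2 and IRS-1 clones, ATF3, JUN and JUND, and for EGR1, the textbook serum response gene among those that did not pass. They run from 250 bases before to 50 bases after a start site in RefSeq (GRCh38.p14), 5′ to 3′ on the strand of the gene, at chr1:212565157-212565456 (+ strand) for ATF3, chr1:58783998-58784297 (− strand) for JUN, chr19:18281573-18281872 (− strand) for JUND and chr5:138465229-138465528 (+ strand) for EGR1. Capitals mark matches to the motifs described after them.
ATF3: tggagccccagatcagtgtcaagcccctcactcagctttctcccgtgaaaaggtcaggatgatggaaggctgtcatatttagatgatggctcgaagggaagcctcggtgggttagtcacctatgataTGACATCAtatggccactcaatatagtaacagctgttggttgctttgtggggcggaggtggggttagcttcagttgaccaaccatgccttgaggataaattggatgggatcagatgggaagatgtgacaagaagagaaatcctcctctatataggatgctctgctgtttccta
JUN: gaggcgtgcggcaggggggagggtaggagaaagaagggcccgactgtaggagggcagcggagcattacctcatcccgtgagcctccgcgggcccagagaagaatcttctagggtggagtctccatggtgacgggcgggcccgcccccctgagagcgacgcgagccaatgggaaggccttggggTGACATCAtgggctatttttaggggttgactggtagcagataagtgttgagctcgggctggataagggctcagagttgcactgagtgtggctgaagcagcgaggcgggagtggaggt
JUND: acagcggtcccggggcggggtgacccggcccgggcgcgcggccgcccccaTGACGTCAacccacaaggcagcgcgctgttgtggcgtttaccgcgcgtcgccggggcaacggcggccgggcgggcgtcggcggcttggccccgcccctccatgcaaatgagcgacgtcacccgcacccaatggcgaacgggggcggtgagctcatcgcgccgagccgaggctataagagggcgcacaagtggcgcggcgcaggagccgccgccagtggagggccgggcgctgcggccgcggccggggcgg
EGR1: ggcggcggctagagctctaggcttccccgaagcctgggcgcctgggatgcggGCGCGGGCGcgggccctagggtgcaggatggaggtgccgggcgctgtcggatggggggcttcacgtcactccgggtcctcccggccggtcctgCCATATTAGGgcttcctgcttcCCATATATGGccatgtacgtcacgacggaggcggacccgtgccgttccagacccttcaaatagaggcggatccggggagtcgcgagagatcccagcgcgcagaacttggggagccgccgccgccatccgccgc
No window was taken for FOSL1 or EGR3. For the other 8 of the 10 genes there were 9 windows in all, since ATF3 has a second start site at chr1:212614768-212615067 (+ strand). Both strands were searched for the CArG box (the site of the serum response factor), TGANTCA (the AP-1 site), TGACGTCA (the cAMP response element), GCGNGGGCG (the EGR site) and TGACATCA, which was added after the sequences had been seen. EGR1 held 2 CArG boxes, at positions -105 and -83 from the start site, and GCGCGGGCG at -198. JUN held TGACATCA at -67 and the first ATF3 window held it at -123. JUND held TGACGTCA at -200 and FOSL2 held TGACTCA 5 bases into the transcript, while the windows of FOS, FOSB and JUNB and the second ATF3 window held no match. Of all 35116 windows, 1.29% held a CArG box, 7.71% TGANTCA, 1.85% TGACGTCA, 2.61% TGACATCA and 9.43% GCGNGGGCG. These matches describe letters and do not show a site in use. Sites outside the windows were not searched, so a window without a match does not show that a promoter lacks the motif.

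ATF3 rose at 4 h in both IRS-2 clones and at 24 h in IRS-1 #20. In IRS-2 #6 at 4 h its log2 level was 9.85, 9.62 and 9.77 with IGF-I, against 9.08, 8.998 and 9.08 in SFM, so the groups did not overlap. The difference was 0.69 (SE 0.073, 1.62-fold, adjusted p = 1.44e-09 in limma), and with the mean of the ATF3 probe sets it was 0.39, below 1.5-fold (adjusted p = 2.30e-08). In IRS-2 #1 the 3 IGF-I arrays at 4 h stood at 9.65, 9.65 and 9.70, above the SFM arrays at 9.32, 9.36 and 9.27. That difference was smaller, 0.35 (1.27-fold, adjusted p = 0.00298 in limma), and without the C arrays it was 0.31 with an adjusted p of 0.104. In the IRS-1 clones at 4 h the arrays overlapped. IRS-1 #20 had 9.05, 8.93 and 8.80 with IGF-I, against 8.69, 8.64 and 8.89 in SFM (difference 0.18, adjusted p = 0.175 in limma), and IRS-1 #10 had 9.43, 9.48 and 9.25 with IGF-I, against 9.25, 9.27 and 9.30 in SFM (difference 0.11, adjusted p = 0.564).

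At 24 h the order of the clones was another. In IRS-1 #20, ATF3 reached 9.56, 9.30 and 9.40 with IGF-I, against 8.78, 8.93 and 9.10 in SFM, a difference of 0.48 without overlap (1.40-fold, adjusted p = 4.52e-06 in limma). The SFM arrays of this clone were the lowest of the 4 clones, so with IGF-I its mean of 9.42 ± 0.13 came near the SFM mean of 9.34 ± 0.070 in IRS-1 #10 (SD, n = 3 each). In IRS-1 #10 the IGF-I arrays were 9.57, 9.42 and 9.50, against 9.28, 9.34 and 9.42 in SFM, a difference of 0.15 that did not pass (adjusted p = 0.237 in limma). In IRS-2 #6 the 24 h difference was -0.04 (95% interval -0.19 to 0.10) and in IRS-2 #1 it was -0.01 (-0.16 to 0.13), so both intervals lay well within 1.5-fold. A second ATF3 probe set, 1554980_a_at, responded much like it (r = 0.98 over 8 comparisons, which share no arrays but share clones), with 0.39 in IRS-2 #6 at 4 h and 0.35 in IRS-1 #20 at 24 h, both past the adjusted p and neither past 1.5-fold. In IRS-2 #1 at 4 h it differed by 0.20 and did not pass (adjusted p = 0.0829), although its arrays did not overlap. The remaining probe set, 1554420_at, was unlike them (r = 0.22) and passed in no comparison.

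**Figure D2:**
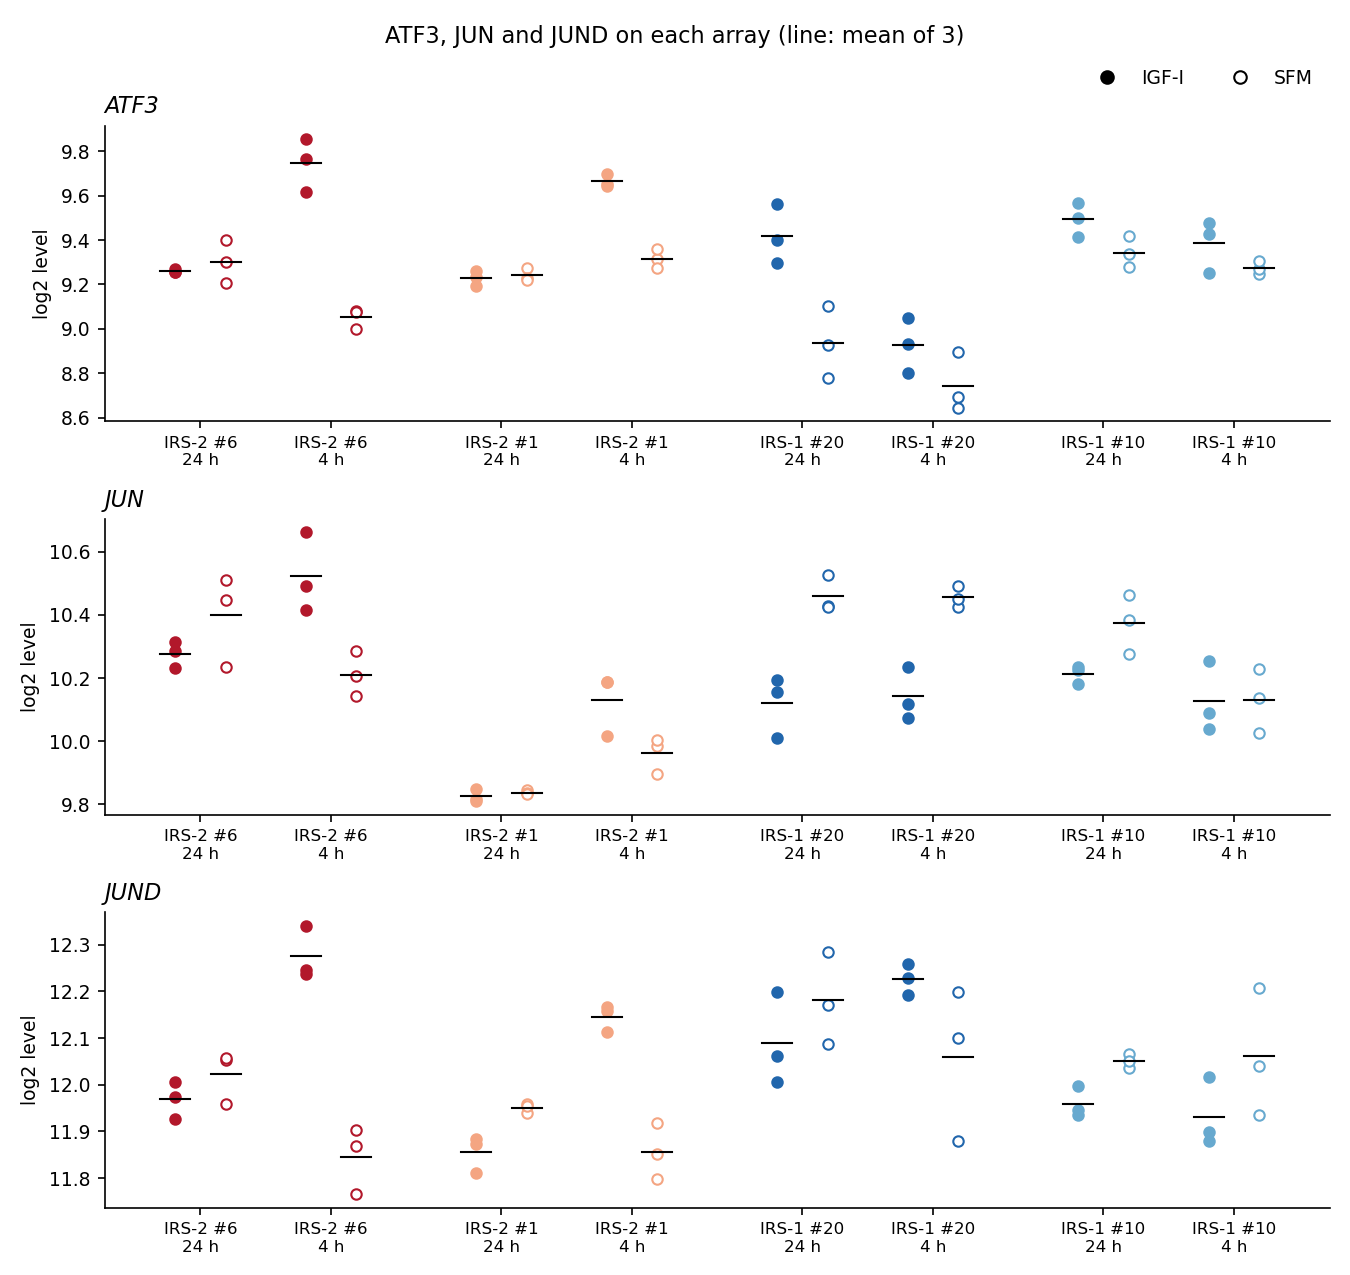
Log2 level of ATF3, JUN and JUND on each array (filled points IGF-I, open points SFM, lines the mean of 3 arrays), by clone and time. At 4 h the IGF-I arrays of IRS-2 #6 and #1 lie above their SFM arrays for all 3 genes, while JUN in IRS-1 #20 lies below its SFM arrays at both times.

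JUN, the AP-1 subunit that pairs with every FOS protein, moved in opposite directions in different clones. In IRS-2 #6 at 4 h it read 10.66, 10.42 and 10.49 with IGF-I, against 10.21, 10.14 and 10.28 in SFM, a rise of 0.31 (SE 0.065, adjusted p = 0.00208 in limma). In IRS-1 #20 at 4 h it read 10.12, 10.23 and 10.07 with IGF-I, against 10.43, 10.45 and 10.49 in SFM, a fall (difference -0.31, adjusted p = 0.00247 in limma). The groups overlapped in neither clone. The fall in IRS-1 #20 was there at 24 h as well, with 10.01, 10.16 and 10.19 after IGF-I, against 10.43, 10.42 and 10.53 in SFM (difference -0.34, adjusted p = 2.88e-04 in limma). In IRS-2 #1 at 4 h the difference was 0.17 with an adjusted p of 0.262, although all 3 IGF-I arrays (10.19, 10.19 and 10.02) were above the SFM arrays (9.99, 9.90 and 10.00). IRS-1 #10 gave 0.00 at 4 h (95% interval -0.13 to 0.13) and -0.16 at 24 h (adjusted p = 0.132).

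The probe set that stands for JUN carries the suffix of sets that may also bind related transcripts, so its 3 others matter. Their responses over the 8 comparisons correlated with it at 0.85 to 0.95. For 201466_s_at the difference was 0.43 in IRS-2 #6 and -0.31 in IRS-1 #20 at 4 h, both past the adjusted p, and without the C arrays these were 0.34 and -0.22 (adjusted p of 0.0875 and 0.590). At 24 h in IRS-1 #20 none of the 3 others passed, with 201466_s_at at -0.20 (adjusted p = 0.0944), 201465_s_at at -0.08 (0.811) and 213281_at at -0.18 (0.441). At 4 h, leaving out the A arrays moved the rise of JUN in IRS-2 #6 to 0.24 (adjusted p = 0.106), and leaving out the C arrays moved the fall in IRS-1 #20 to -0.26 (adjusted p = 0.198). The fall of the leading probe set at 24 h held with each letter left out.

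JUND, an AP-1 subunit that is present in resting cells and varies less with growth factors than JUN, rose at 4 h in both IRS-2 clones. In IRS-2 #6 its log2 level was 12.34, 12.24 and 12.25 with IGF-I, against 11.87, 11.90 and 11.77 in SFM, and the difference was 0.43 (SE 0.058, adjusted p = 8.26e-07 in limma). In IRS-2 #1 it was 12.11, 12.17 and 12.16 with IGF-I, against 11.85, 11.80 and 11.92 in SFM (difference 0.29, adjusted p = 0.00162 in limma). Neither pair of groups overlapped. In IRS-1 #20 at 4 h the difference was 0.17 and in IRS-1 #10 it was -0.13, with overlapping arrays and adjusted p of 0.105 and 0.314. At 24 h the 4 clones lay between -0.10 and -0.05 and none passed. The probe set 214326_x_at rose by 0.47 in IRS-2 #6 at 4 h (0.41 without the A arrays, adjusted p = 0.0867), and 214326_x_at and 203751_x_at followed the leading one (r = 0.90 and 0.88 over 8 comparisons), but 229117_s_at did not (r = -0.21). Like the leading JUN set, 214326_x_at and 203751_x_at carry the suffix of sets that may also bind related transcripts. Without the A arrays the JUND difference in IRS-2 #1 was 0.30 with an adjusted p of 0.0959, and with the mean of the JUND probe sets it was 0.21 (adjusted p = 0.119).

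JUNB, which can oppose JUN at some AP-1 targets, had the smallest changes past the adjusted p among the JUN genes. It rose by 0.19 in IRS-2 #6 at 4 h, with arrays at 9.70, 9.50 and 9.59 with IGF-I, against 9.45, 9.43 and 9.34 in SFM (adjusted p = 0.0381 in limma). In IRS-1 #20 at 24 h it rose by 0.17, with 10.06, 10.08 and 10.06 after IGF-I, against 9.82, 9.87 and 10.01 in SFM (adjusted p = 0.0476 in limma). Both values lie close to the threshold. Leaving out the A, the B or the C arrays in turn gave adjusted p of 0.306, 0.0503 and 0.455 for the first, and leaving out A or B gave 0.516 and 0.378 for the second. With the replicate letter as a block neither passed (adjusted p of 0.102 and 0.101).

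FOSL2, a FOS family member that persists longer after stimulation than FOS, was the only FOS gene with a change past the adjusted p, and it fell. In IRS-1 #10 at 4 h its log2 level was 8.54, 8.48 and 8.48 with IGF-I, against 8.79, 8.86 and 8.91 in SFM, a difference of -0.35 without overlap (adjusted p = 0.0156 in limma). Without the B arrays it was -0.34 (adjusted p = 0.206) and without the C arrays -0.32 (adjusted p = 0.177). The probe set 218880_at fell in the same comparison by 0.39 (adjusted p = 0.00176 in limma), with 7.69, 7.39 and 7.63 after IGF-I, against 7.89, 8.12 and 7.88 in SFM, but without the B arrays the difference was -0.23 (adjusted p = 0.371). It also fell by 0.36 in IRS-2 #1 at 4 h (adjusted p = 0.00454), where the leading probe set differed by -0.13 and did not pass, and this was lost with any letter left out (adjusted p of 0.0597 without A, 0.0518 without B and 0.201 without C). Another, 228188_at, fell by 0.31 in IRS-2 #6 at 24 h (adjusted p = 0.0452), which was lost with any letter left out (0.347, 0.1003 and 0.213) and with the letter as a block (0.0751). Over the 8 comparisons, the responses of the other 4 FOSL2 probe sets correlated with the leading one at 0.36 to 0.72.

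FOS, FOSB and FOSL1 passed in no comparison. FOS, the partner of JUN in the classical AP-1 dimer, differed by -0.21 in IRS-2 #6 at 4 h, with arrays at 7.34, 7.62 and 7.44 after IGF-I, against 7.71, 7.58 and 7.74 in SFM, which overlapped. Over all 8 comparisons its differences ran from -0.21 to 0.18, and no 95% interval reached beyond -0.39 or 0.37, so a 1.5-fold change lay outside each of them. FOSB, a close relative of FOS, ran from -0.09 to 0.19 with intervals inside -0.26 and 0.36. FOSL1, the gene of FRA-1, was highest at 0.26 in IRS-2 #1 at 4 h, where the IGF-I arrays (6.94, 6.81 and 6.77) were all above the SFM arrays (6.65, 6.51 and 6.58), with an adjusted p of 0.204 in limma. Its intervals stayed inside -0.28 and 0.45.

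EGR1 and EGR3 also passed in no comparison. EGR1 stood at 7.55, 7.91 and 7.74 in IRS-2 #6 at 4 h with IGF-I, against 7.69, 7.60 and 7.61 in SFM, and the arrays overlapped. Its 8 differences lay between -0.07 and 0.16, with intervals inside -0.24 and 0.34. The 2 other EGR1 probe sets did not follow it closely (r = 0.29 and 0.55) and gave no value past the adjusted p either. EGR3, an EGR1 relative that is itself a target of growth factor signals, differed by 0.18 in IRS-1 #20 at 4 h, with 6.25, 6.23 and 6.26 after IGF-I, against 6.09, 6.17 and 5.95 in SFM (adjusted p = 0.248 in limma). Its other 7 differences lay between -0.04 and 0.13.

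Whether the isoforms differ was tested as the mean response of the 2 IRS-2 clones minus that of the 2 IRS-1 clones. At 4 h, 4 of 24 probe sets passed the adjusted p, beside 0.26% of all, and all 4 were higher in the IRS-2 clones: JUN by 0.40 (95% interval 0.27 to 0.53, adjusted p = 3.37e-04 in limma), JUND by 0.34 (0.22 to 0.46, adjusted p = 6.11e-04), ATF3 by 0.37 (0.23 to 0.52, adjusted p = 0.00480) and the JUN probe set 201466_s_at by 0.45 (adjusted p = 2.70e-04, and 0.452 without C). Second probe sets of the other genes did not pass, at 0.20 for ATF3 1554980_a_at (adjusted p = 0.237), 0.35 for JUND 214326_x_at (0.154) and 0.33 for JUND 203751_x_at (0.400), and the mean of the JUND probe sets gave 0.28 (0.0541). FOS had the opposite sign, -0.31, with an adjusted p of 0.224. At 24 h, 1 of 24 passed, beside 0.476% of all, and it was ATF3, whose response was lower in the IRS-2 clones (difference -0.35, interval -0.49 to -0.20, adjusted p = 0.00801). With the replicate letter as a block its adjusted p was 0.0574, and with median centring 0.0504. These errors come from arrays and leave out the spread between the 2 clones of an isoform. Single letters also mattered: without A the JUN difference at 4 h was 0.31 (adjusted p = 0.130) and that of JUND 0.32 (0.148), without B that of JUND was 0.25 (0.135), without C that of ATF3 at 4 h was 0.24 (0.904), and at 24 h that of ATF3 was -0.22 without A (0.747) and -0.38 without B (0.0699).

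Between clones of the same isoform, no response of the 24 probe sets differed past the adjusted p, with 0.00183% of all probe sets passing for IRS-2 #6 minus #1 at 4 h and 0.00183% at 24 h, and with 0.0366% for IRS-1 #20 minus #10 at 4 h and 1.05% at 24 h. The intervals were wide. ATF3 at 4 h responded by 0.35 more in IRS-2 #6 than in #1 (interval 0.14 to 0.55, adjusted p = 0.847 in limma), and JUN at 4 h by -0.31 in IRS-1 #20 relative to #10 (interval -0.50 to -0.12, adjusted p = 0.370). At 24 h the ATF3 response was 0.33 higher in IRS-1 #20 than in #10 (interval 0.13 to 0.54, adjusted p = 0.104).

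The responses of ATF3, JUN and JUND in IRS-2 #6 were larger at 4 h than at 24 h. The response at 24 h minus that at 4 h was -0.74 for ATF3 (adjusted p = 4.99e-06 in limma), -0.48 for JUND (adjusted p = 1.84e-04) and -0.43 for JUN (adjusted p = 0.00529). In this clone 6 of 24 probe sets passed the adjusted p and 2 were called, ATF3 and the JUND probe set 214326_x_at at -0.59 (which did not pass with any letter left out, adjusted p of 0.0683 to 0.197), beside 0.976% and 0.24% of all. In IRS-2 #1, 1 of 24 passed, JUND at -0.39 (adjusted p = 0.00544), beside 0.958% of all, and ATF3 at -0.36 did not (adjusted p = 0.0821). In IRS-1 #20, 0 of 24 passed beside 4.79%, with ATF3 at 0.30 (adjusted p = 0.0834), and in IRS-1 #10, 1 of 24 passed beside 2.54%, the FOSL2 probe set 218880_at at 0.38 (adjusted p = 0.0482, which did not pass with any letter left out, at 0.1003 to 0.625, or with the letter as a block, at 0.126). Without the A arrays the values in IRS-2 #6 were -0.28 for JUN (adjusted p = 0.454, and 0.0774 without B) and -0.47 for JUND (0.0786), while that of ATF3 held with each letter left out. With the mean of its probe sets ATF3 stood at -0.34 there, below 1.5-fold (adjusted p = 6.88e-04). The JUND value in IRS-2 #1 had an adjusted p of 0.244 without A and 0.0831 without B, and with the mean of the JUND probe sets it was -0.27 (0.197).

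Levels without IGF-I were compared between the clones, first as means over the 6 SFM arrays of a clone, 3 at 24 h and 3 at 4 h, ± SD. None of these differences was called, the largest being 1.47-fold. The counts past the adjusted p stood near the shares of all probe sets given in brackets, and 68 of 144 values passed the adjusted p: 7 of 24 between IRS-2 #6 and #1 (19.3% of all probe sets), 13 between #6 and IRS-1 #20 (50.5%), 12 between #6 and IRS-1 #10 (54.8%), 15 between IRS-2 #1 and IRS-1 #20 (51.6%), 13 between #1 and IRS-1 #10 (53.4%) and 8 between IRS-1 #20 and #10 (31.8%). Within a single time, 4 member probe set values at 4 h and 1 at 24 h were called. These were FOS (IRS-2 #6 minus IRS-1 #20 and minus #10), the EGR1 probe set 201694_s_at (#6 minus IRS-1 #20) and the EGR1 probe set 227404_s_at (IRS-2 #1 minus IRS-1 #20) at 4 h, and JUN (#1 minus IRS-1 #20) at 24 h. Of all probe sets, 7.28%, 10.2% and 8.24% were called at 4 h for IRS-2 #6 minus IRS-1 #20, #6 minus #10 and #1 minus #20, and 7.89% at 24 h for #1 minus #20. The plot of SFM levels shows each array.

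**Figure D3:**
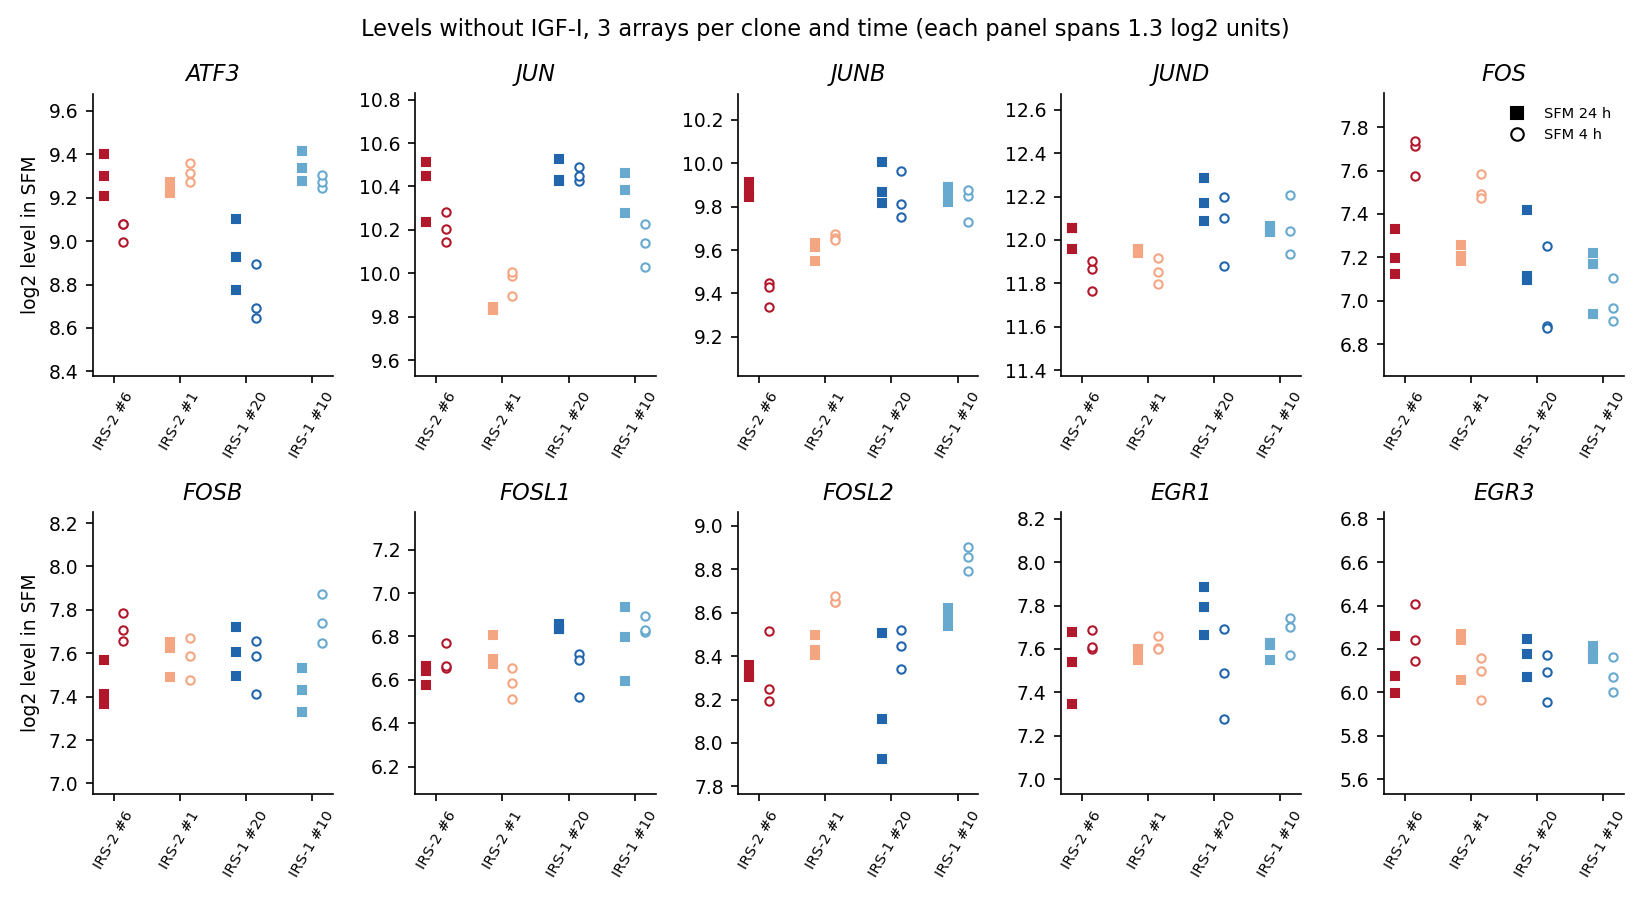
Log2 level of the 10 genes on each SFM array, by clone (squares 24 h, circles 4 h, 3 arrays each), with panels of equal height. JUN is lowest in IRS-2 #1, ATF3 in IRS-1 #20, JUNB in IRS-2 #6 differs between times, and FOS in the IRS-2 clones lies above the IRS-1 clones at 4 h and among them at 24 h.

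ATF3 had the order IRS-1 #10 (9.31 ± 0.061), IRS-2 #1 (9.28 ± 0.052), IRS-2 #6 (9.18 ± 0.15) and IRS-1 #20 (8.84 ± 0.17). IRS-1 #20 was below each of the others, with a difference of -0.47 to IRS-1 #10 and with IRS-2 #6 and #1 higher than it by 0.34 and 0.44 (adjusted p of 2.49e-07 or less in limma). The neighbours IRS-1 #10 and IRS-2 #1, and IRS-2 #1 and #6, did not differ past the adjusted p, and IRS-2 #6 minus IRS-1 #10 was -0.13 (adjusted p = 0.0275). At 4 h alone IRS-2 #6 was below #1 (difference -0.26, adjusted p = 0.00772) and below IRS-1 #10 (-0.22, 0.0104), and at 24 h neither passed. JUN was highest in IRS-1 #20 (10.46 ± 0.042), followed by IRS-2 #6 (10.31 ± 0.14), IRS-1 #10 (10.25 ± 0.16) and IRS-2 #1 (9.90 ± 0.077). All 6 arrays of IRS-2 #1 were below all arrays of every other clone, with a difference of -0.56 to IRS-1 #20 (adjusted p = 1.42e-14 in limma), and only IRS-2 #6 and IRS-1 #10 did not differ past the adjusted p. The JUN differences of IRS-2 #6 to IRS-1 #20 (-0.24) and of IRS-1 #20 to #10 (0.32) passed at 4 h and not at 24 h (-0.06 and 0.08).

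FOS was higher in the IRS-2 than in the IRS-1 clones at 4 h, and at 24 h these differences did not pass. At 4 h the SFM arrays of FOS read 7.71, 7.58 and 7.74 in IRS-2 #6 and 7.49, 7.58 and 7.47 in #1, against 6.89, 7.25 and 6.87 in IRS-1 #20 and 7.10, 6.96 and 6.91 in #10, without overlap between the isoforms. IRS-2 #6 was above IRS-1 #20 by 0.67 (1.59-fold, and 0.58, just under 1.5-fold, without the C arrays) and above #10 by 0.68 (1.61-fold), and IRS-2 #1 was above them by 0.51 and 0.52 (adjusted p of 8.31e-06 or less in limma). At 24 h the means were 7.22 ± 0.10 in IRS-2 #6 and 7.22 ± 0.037 in #1, against 7.21 ± 0.18 in IRS-1 #20 and 7.11 ± 0.15 in #10 (SD, n = 3 each), and no pair passed. The change of the clone difference between times, 24 h minus 4 h, was -0.66 for IRS-2 #6 minus IRS-1 #20 (adjusted p = 5.40e-04), -0.57 for #6 minus #10 (0.0103) and -0.51 for IRS-2 #1 minus IRS-1 #20 (0.0309), while that for #1 minus #10 did not pass. The first was lost without A (0.0725), the second with any letter left out (0.0887 to 0.111) and the last without A or C (0.396 and 0.240). Of all probe sets, 23.8%, 1.34% and 1.35% passed the same tests, in that order.

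JUNB in IRS-2 #1 lay below IRS-1 #20 and #10 at 4 h as well as at 24 h, whereas IRS-2 #6 lay below them at 4 h and not at 24 h. At 4 h IRS-2 #6 had 9.45, 9.43 and 9.34, with differences of -0.44 to IRS-1 #20 and -0.41 to #10 (adjusted p of 9.09e-09 or less in limma), and at 24 h its 9.87, 9.84 and 9.92 overlapped with both (differences of -0.02 and 0.02). IRS-2 #1 differed by -0.18 and -0.16 at 4 h and by -0.30 and -0.26 at 24 h (adjusted p of 0.0117 or less), of which that to IRS-1 #20 at 4 h was lost without B (0.203) and that to #10 at 4 h without A or B (0.0854 and 0.145). Between the IRS-2 clones JUNB differed in opposite directions, with #6 minus #1 at -0.25 at 4 h (adjusted p = 4.81e-04) and 0.28 at 24 h (adjusted p = 1.66e-04), without overlap at either time. The 6-array means, 9.64 ± 0.26 in #6 and 9.63 ± 0.044 in #1, do not show this. The change between times was 0.53 (adjusted p = 3.20e-05 in limma) and held with each letter left out, beside 0.505% of all probe sets past the adjusted p. The IRS-1 clones did not differ past the adjusted p in FOS or JUNB at either time.

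JUND depended on the probe set. The leading one was lower in IRS-2 #6 (11.93 ± 0.11) and #1 (11.90 ± 0.065) than in IRS-1 #20 (12.12 ± 0.14) and #10 (12.06 ± 0.087), with differences of -0.22 to -0.12, and against IRS-1 #10 these passed at 4 h and not at 24 h. In contrast, 229117_s_at was higher in both IRS-2 clones, by 0.22 to 0.45 (adjusted p of 0.00250 or less in limma). FOSL2 was highest in IRS-1 #10 (8.72 ± 0.16) and IRS-2 #1 (8.55 ± 0.12) and lower in IRS-2 #6 (8.32 ± 0.11) and IRS-1 #20 (8.31 ± 0.24), and these last did not differ past the adjusted p. The EGR1 probe set 201694_s_at was higher in each IRS-2 clone than in each IRS-1 clone by 0.39 to 0.42 (adjusted p of 2.43e-06 or less), although at 24 h alone the differences of IRS-2 #6 (0.17 and 0.22) did not pass. The leading EGR1 probe set, FOSB and EGR3 passed for no pair of clones over both times. At 24 h alone the leading EGR1 probe set was lower in IRS-2 #6 than in IRS-1 #20 (difference -0.26, adjusted p = 0.0137), and at 4 h alone EGR3 was higher in IRS-2 #6 than in IRS-1 #20 and #10, by 0.19 each (0.0453 and 0.0485). FOSL1 passed for 1 pair, IRS-2 #1 minus IRS-1 #10, at -0.16 (adjusted p = 0.0419, and up to 0.152 over the settings with both times), and at 24 h alone it was -0.05 and did not pass.

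SFM levels also moved between 4 h and 24 h, which changes the baseline of each response. The number of probe sets past the adjusted p was 8 of 24 in IRS-2 #6 (12.8% of all), 2 in clone #1 (5.33%), 4 in IRS-1 #20 (20.8%) and 4 in clone #10 (1.83%), and none was called. In IRS-2 #6, JUNB was higher at 24 h by 0.47, with 9.87, 9.84 and 9.92 at 24 h, against 9.45, 9.43 and 9.34 at 4 h (adjusted p = 7.01e-09 in limma). FOS was lower at 24 h in the same clone (difference -0.46), with 7.20, 7.12 and 7.33, against 7.71, 7.58 and 7.74 at 4 h (adjusted p = 3.85e-04). Both groups of arrays were apart from each other. In IRS-2 #6 the SFM level of ATF3 was also higher at 24 h, by 0.25 (adjusted p = 0.0160), of JUN by 0.19 (0.0487) and of JUND by 0.18 (0.0343). By their leading probe sets, all 4 genes that rose with IGF-I at 4 h in this clone thus had a higher SFM level at 24 h than at 4 h. The ATF3 probe set 1554980_a_at had SFM means of 9.16 at 24 h and 9.14 at 4 h, and the mean of the ATF3 probe sets differed by -0.017. FOSB was lower at 24 h (-0.27, 0.0299). Of 19 other immediate early genes, 9 were higher and 1 lower at 24 h in SFM past the adjusted p in this clone, beside 12.8% of all probe sets. The JUNB and FOS differences held with each letter left out, while those of ATF3, JUN, JUND and FOSB did not, with adjusted p of up to 0.816, 0.371, 0.253 and 0.183 over the settings tried. FOS differed by -0.30 in IRS-2 #1 as well (adjusted p = 0.0401, and up to 0.304 with a letter left out), and in the IRS-1 clones it did not pass. In IRS-1 #10, FOSB was also lower at 24 h (-0.33, adjusted p = 0.0340 in limma) and JUN also higher (0.24, 0.0378). In IRS-1 #20, FOSL2 was lower at 24 h (-0.26, 0.0274) and EGR1 higher (0.30, 0.0142). Each of these differences in the IRS-1 clones was lost with some letter left out.

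Genes around this family give the setting of these values. Their lists were chosen with earlier results of these data known, so the counts below are descriptive and test nothing. Of 21 other immediate early genes listed, 19 were measured, and 6 were called after IGF-I, all of them higher in IRS-2 #6 at 4 h (beside 0.223% of all probe sets): CCN1 at 0.97, CCN2 at 0.94, KLF4 at 0.72, DUSP1 at 0.67, IER3 at 0.61 and KLF6 at 0.61. CCN1 and CCN2 encode matrix proteins, KLF4 and KLF6 zinc finger factors, and DUSP1 a phosphatase that inactivates MAP kinases. In that comparison 9 of 19 passed the adjusted p, all higher (beside 2.35% of all), and at 4 h there were 4 in IRS-2 #1 (1.62%), 4 in IRS-1 #20 (3.08%) and 2 in clone #10 (1.81%), and in IRS-2 #6 the list had a median of 0.18, beside -0.01 over all genes. Of 14 dimer partners and cofactors, 13 were measured and 0 were called by limma in any of the 8 IGF-I comparisons, with at most 4 past the adjusted p (in IRS-1 #20 at 24 h, beside 7.2%). Of 14 upstream kinases and factors, 13 were measured and only SRF, the factor that binds the CArG box, was called after IGF-I, at 0.65 in IRS-2 #6 at 4 h.

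Of 15 AP-1 target genes, 14 were measured. CCND1, the gene of cyclin D1, was called in all 4 clones at 4 h, at 0.69 in IRS-2 #6, 0.78 in IRS-2 #1, 0.78 in IRS-1 #20 and 0.79 in clone #10 (shares of all probe sets called from 0.0623% to 0.223%). VEGFA was called in IRS-1 #20 at 24 h (0.63). All 10 genes of the ATF4 and stress response list were measured, and 7 were called in IRS-1 #20 at 24 h, where ATF3 rose and 0.251% of all probe sets were called: ASNS at 1.83, PSAT1 at 1.21, TRIB3 at 1.15, DDIT3 at 1.07, CHAC1 at 0.85, ATF4 at 0.78 and SESN2 at 0.61. ATF4 is the factor that drives amino acid synthesis genes such as ASNS and PSAT1 under stress. The median of that list was 0.82 there, beside 0.01 over all genes, and 0.18 in IRS-1 #10, where ASNS (0.96) and PSAT1 (0.95) were called. In IRS-2 #6 and #1 at 24 h none of the 10 was called, and 1 (beside 3.84%) and 2 (beside 3.15%) passed the adjusted p. In IRS-1 #10 at 24 h, 5 passed higher and 2 lower (beside 8.01%). At 4 h none was called in any clone, and all that passed the adjusted p were higher. These were 6 in IRS-2 #6 (beside 2.35%), 2 in IRS-2 #1 (1.62%), 1 in IRS-1 #20 (3.08%) and 5 in IRS-1 #10 (1.81%), where ATF3 did not pass.

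**Figure D4:**
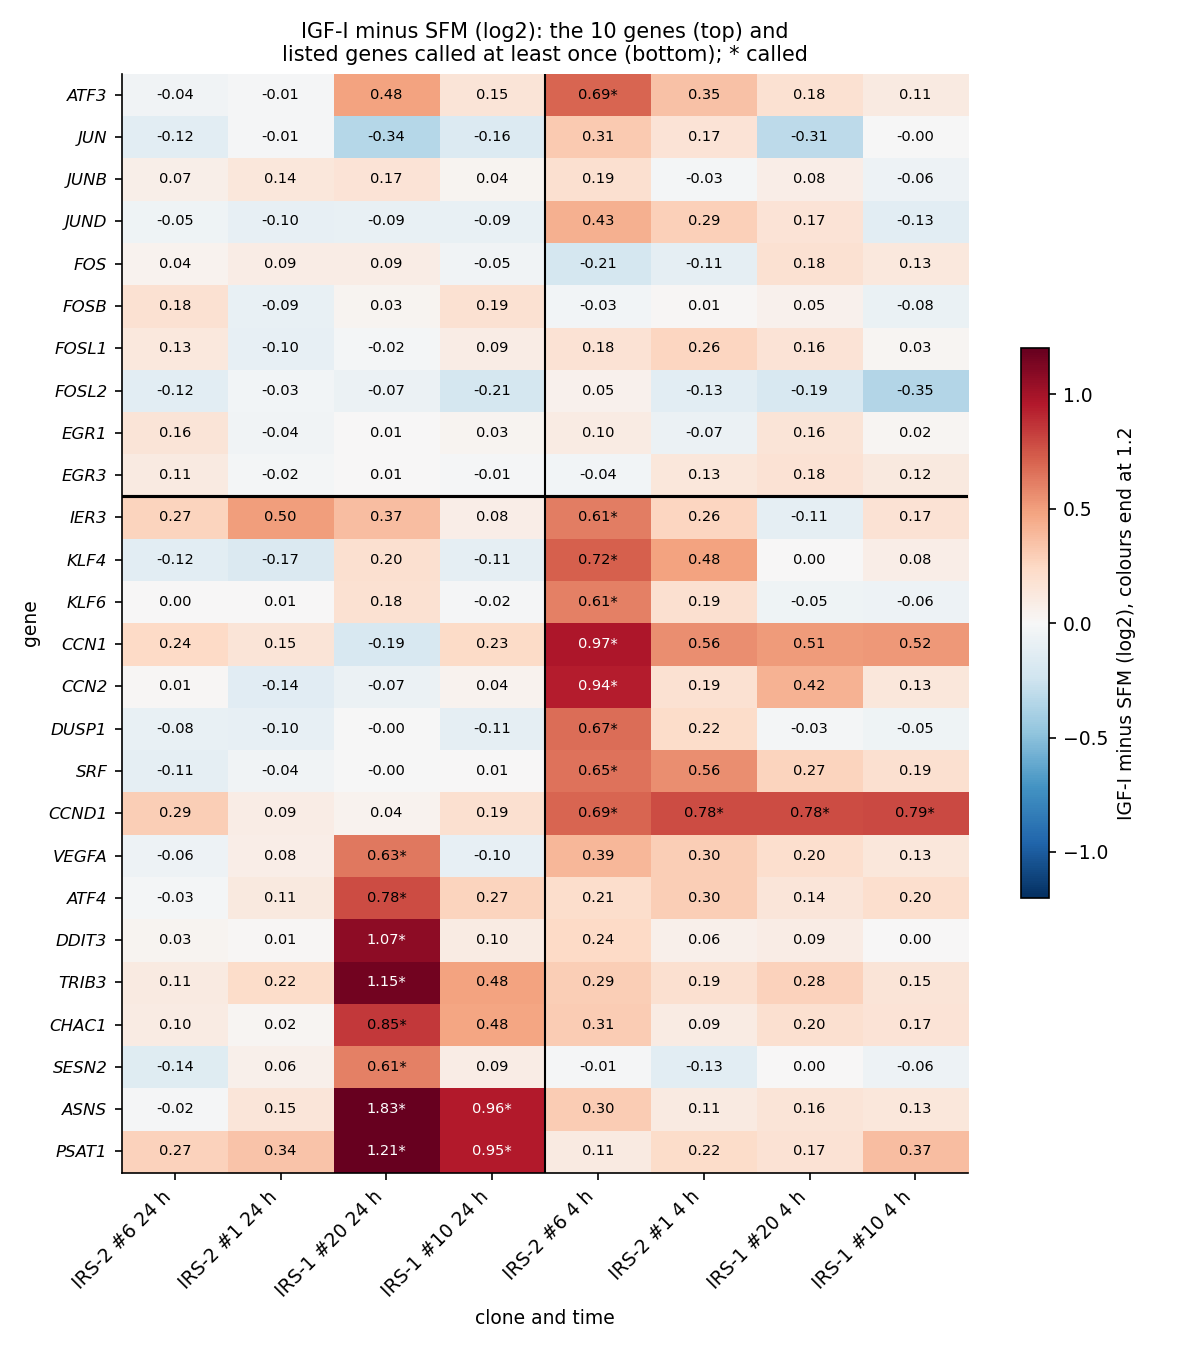
Difference in mean log2 level, IGF-I minus SFM (colour and printed value), for the 10 genes (upper block) and the listed genes called at least once (lower block), in 4 clones at 24 h (left) and 4 h (right), with * for called values. Called listed genes sit mainly in IRS-2 #6 at 4 h and IRS-1 #20 at 24 h, the groups in which ATF3 had 0.69 and 0.48.

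Among 180 genes compared with ATF3 over the 8 responses, those most like it were CFB (r = 0.90), KLF4 (r = 0.90) and KLF6 (r = 0.88). Only genes called in any of these same 8 comparisons were compared. KLF4 and KLF6 were called, as ATF3 was, in IRS-2 #6 at 4 h, so their likeness is partly built in by that choice. These correlations are over 8 comparisons from 4 clones, so their points share cells. KLF4 followed ATF3 in the IRS-2 clones at 4 h (0.72 in #6 and 0.48 in #1) and had 0.20 in IRS-1 #20 at 24 h. CFB, which encodes complement factor B, was like it in shape only: its change was 0.12 in IRS-2 #6 at 4 h and -0.74 in the same clone at 24 h.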

How the data were processed

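RNA levels in 4 T47D-YA clones were read on HG-U133 Plus 2.0 arrays (Affymetrix). According to the methods, the authors used the GC-RMA summary of GeneData Refiner. GCRMA is also listed in the submitters' processing notes, with its version not given in the sources used here. The deposited values, normalized between arrays by the authors, are on a log2 scale (3.13 to 15.36) and hold no division by untreated controls. Raw probe intensities were not used, which leaves signal over background unknown, and the number of arrays, 3 per group, limits precision. Symbols came from the platform annotation, where 41097 of 54675 probe sets carry a single symbol, and 41043 of these were matched by Entrez identifier to RefSeq genes, with 0 changed symbols.

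After 62 control probe sets were left out, limma 3.58.1 (R 4.3.3) was fitted with a mean for each of 16 groups and trended empirical Bayes variances (32 residual degrees of freedom), and p-values were adjusted by Benjamini-Hochberg over all 54613 probe sets for each comparison. Errors are between arrays and leave out spread between clones. All probe sets of the 10 genes were reported. Genes of 5 lists, written from general knowledge, were named where called in any IGF-I comparison. Likeness to a called member was Pearson's r over the 8 responses, among genes called in any of these 8 comparisons. The family and lists were chosen with earlier results of these data known. Alternatives were a filter on dim probe sets (kept at log2 5 or above on 3 or more arrays), quantile normalization, median centring, normexp background (offset 50), variances without trend, a fit to the compared groups only, the methods' t-test, a 2-fold or no fold threshold, averaging all probe sets of a gene, a block for the replicate letter, and each letter left out. SFM differences within a single time were added after seeing the data. The code was tested on simulated data with known changes. Figures used Python 3.11.15 and matplotlib 3.10.9.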

Additional observations from a re-analysis of the deposited data

Results flagged for a closer look

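The IGF-I response of 3 genes differed between groups of cells by a limma test of the difference itself. The mean response of the IRS-2 clones minus that of the IRS-1 clones at 4 h was 0.40 for JUN, 0.34 for JUND and 0.37 for ATF3. At 24 h the same difference was -0.35 for ATF3. Between times, the response at 24 h minus that at 4 h in IRS-2 #6 was -0.43 for JUN, -0.48 for JUND and -0.74 for ATF3, and in IRS-2 #1 it was -0.39 for JUND. Of these response differences, only that of ATF3 between times in IRS-2 #6 passed with each letter left out. Each of the others was lost at least once. Of all probe sets, 0.26% at 4 h and 0.476% at 24 h passed the test between isoforms. For the test between times these shares were 0.976% in IRS-2 #6 and 0.958% in IRS-2 #1. The tests across isoforms use arrays as replicates, with 2 clones per isoform, so isoform and clone cannot be told apart by them. The SFM levels of the leading JUN, JUND and ATF3 probe sets in IRS-2 #6 were themselves higher at 24 h than at 4 h, by 0.19, 0.18 and 0.25. None of these shifts passed in every setting, and with the mean of the ATF3 probe sets that of ATF3 was -0.017. The part of these shifts in the differences between times was not tested. In SFM, differences between clones changed between times by the same kind of test, given as 24 h minus 4 h. For IRS-2 #6 minus #1 the change was 0.53 for JUNB. For IRS-2 #6 minus IRS-1 #20 it was -0.66 for FOS, -0.33 for FOSB, 0.42 for JUNB and -0.41 for EGR1, and for IRS-2 #6 minus IRS-1 #10 it was -0.57 for FOS and 0.43 for JUNB. For IRS-2 #1 it was -0.51 for FOS against IRS-1 #20 and -0.37 for JUN against IRS-1 #10. For IRS-1 #20 minus #10 it was 0.38 for FOSB and 0.37 for EGR1. With a letter left out in turn, the 3 values of JUNB passed each time and each of the other 8 was lost at least once. In these tests 1 of 24 member probe sets passed for IRS-2 #6 minus #1 (0.505% of all). For IRS-2 #6 minus IRS-1 #20, 6 passed, near the share of all (23.8%), and for IRS-2 #6 minus IRS-1 #10, 2 passed (1.34%). For IRS-2 #1, 1 passed against IRS-1 #20 (1.35%) and 1 against IRS-1 #10 (2.24%). For IRS-1 #20 minus #10, 2 passed, beside 18% of all.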

How the results depend on the processing

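The single call after IGF-I (1 probe set and 1 gene, ATF3 in IRS-2 #6 at 4 h) became 0 with the methods' t-test after Benjamini-Hochberg adjustment and at a 2-fold threshold, and 0 genes when probe sets of a gene were averaged. Without a fold threshold, 19 of the 192 values of the 24 probe sets passed after IGF-I, from 5 genes. In SFM, 68 of 144 values passed between clones and 18 of 96 between times. With the 1.5-fold threshold there were 1 value and 1 gene after IGF-I, and 0 and 0 values in SFM. The shares of all probe sets are given above for each comparison. Quantile normalization gave 1 call between clones in SFM, and comparing SFM arrays of a single time (chosen after seeing the data) gave 4 at 4 h and 1 at 24 h and turned JUNB for IRS-2 #6 minus IRS-1 #10 to 0.018 at 24 h. The count of 19 was 0 by the methods' t-test after adjustment and 35 at its unadjusted p, and ranged from 12 to 14 with a letter left out, lowest without the C arrays. With the replicate block it was 16 and the calls after IGF-I stayed at 1. The letters do not pair arrays: arrays of the same letter deviated together in 3 of 24 pairs at a correlation over 0.1 (range -0.47 to 0.31), and in 4 of 24 an array correlated best with its own letter. With that averaging, 4 SFM differences changed sign: JUND to 0.059 for IRS-2 #6 minus IRS-1 #20, 0.18 for IRS-2 #6 minus IRS-1 #10 and 0.082 for IRS-2 #1 minus IRS-1 #10, and ATF3 at 24 h minus 4 h in IRS-2 #6 to -0.017. One of the averaged JUND probe sets, 229117_s_at, was higher in the IRS-2 clones. The cause was not tested. Signal over background is unknown.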
